A study of Homo sapiens with 20 samples.

Results

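The genes of the TGF-beta family described here were the 3 ligands TGFB1, TGFB2 and TGFB3, the 3 receptors TGFBR1, TGFBR2 and TGFBR3, and the 4 latent TGF-beta binding proteins LTBP1, LTBP2, LTBP3 and LTBP4. They were taken by gene symbol, as a family picked with earlier results of these data known, and made up 10 of the 24196 genes in the table. All 10 had a mean of at least 0.5 FPKM, fragments of a gene scaled by its length and by the fragments of the library, and were among the 12486 genes tested. The 8 libraries came from orthotopic tumors of OVCAR8, a human ovarian carcinoma cell line, in NSG mice, an immunodeficient strain without B, T or NK cells that still has fibroblasts, vessels and myeloid cells of its own. One group of 4 tumors was from mice given PBS and the other group of 4 from mice given sodium gluconate, the salt of an oxidized form of glucose. Per the methods of the study, the cells carried luciferase and a guide RNA without a target, NSG mice of 6 weeks of age received them in the ovarian fat pad, and treatment in the efficacy experiment was by intraperitoneal injection 1 time per week at 1 mg/kg for 35 days. The labels of the 8 libraries name neither luciferase nor a guide, and both groups stand for a single cell line in mice that lack lymphocytes. A further 12 libraries of cultured knockout and control cells were not analysed here.

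TGF-beta is made as a precursor that stays bound to its own propeptide after cleavage. This latent complex is linked to a latent TGF-beta binding protein, which is laid down on fibrillin and fibronectin fibers, and integrins or proteases free the ligand from it. Free ligand binds the type II receptor TGFBR2, which activates the type I receptor TGFBR1 and through it SMAD2 and SMAD3, while the co-receptor TGFBR3, also called betaglycan, presents the ligand. In ovarian carcinoma the pathway is known for its part in matrix production and in the epithelial to mesenchymal transition.

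The ligand promoters are shown because the ligands were furthest apart in level of the members of any class. The sequences are the 250 bases before the RefSeq start on GRCh38.p14, read 5′ to 3′ on the strand of the gene, with capitals marking matches on either strand to TATAA (TATA box), GGGCGG (GC box) or TGACGT (letters found in cAMP response elements). The window of TGFB1 is chr19:41353923-41354172 on the minus strand, that of TGFB2 is chr1:218345086-218345335 on the plus strand, and that of TGFB3, at the second of its RefSeq starts, is chr14:75981996-75982245 on the minus strand.
TGFB1: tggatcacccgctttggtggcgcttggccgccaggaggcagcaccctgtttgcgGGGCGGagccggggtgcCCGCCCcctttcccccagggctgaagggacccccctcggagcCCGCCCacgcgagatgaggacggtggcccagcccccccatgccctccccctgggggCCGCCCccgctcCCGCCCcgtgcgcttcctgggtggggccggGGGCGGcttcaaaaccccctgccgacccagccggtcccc
TGFB2: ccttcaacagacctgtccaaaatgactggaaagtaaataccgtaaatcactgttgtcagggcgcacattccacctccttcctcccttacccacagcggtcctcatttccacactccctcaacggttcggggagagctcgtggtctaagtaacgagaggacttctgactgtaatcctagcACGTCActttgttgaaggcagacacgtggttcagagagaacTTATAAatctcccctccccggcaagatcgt
TGFB3: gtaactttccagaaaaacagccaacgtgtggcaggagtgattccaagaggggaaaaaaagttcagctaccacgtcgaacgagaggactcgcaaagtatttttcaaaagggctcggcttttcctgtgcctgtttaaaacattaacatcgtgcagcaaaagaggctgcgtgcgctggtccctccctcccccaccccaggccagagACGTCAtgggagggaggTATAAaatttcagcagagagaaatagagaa
The TGFB1 window was 76.8% G and C, held 6 matches to GGGCGG and held neither of the other motifs. The TGFB2 window was 50.4% G and C, with 2 overlapping matches to TATAA, one on each strand, and 1 match to TGACGT. The TGFB3 window was 49.2% G and C, with 1 match to TATAA and 1 to TGACGT, whereas the window of the other TGFB3 start, chr14:75983012-75983261, held none of the 3 motifs. Of 35116 RefSeq promoter windows of the same length, 18.9% held TATAA, 42.6% held GGGCGG and 7.1% held TGACGT, and the median G and C content was 58.0%. A match to these letters is a description of the sequence and was not tested as a binding site.

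PBS replicate 4 stood apart from the other 7 libraries. Its FPKM values rest on 3953206 fragments, 9.95 to 11.8 times fewer than the 39325749 to 46551535 of the others, and it had 15514 genes above 0 where the others had 19991 to 20251. Over the genes tested, its log2 values correlated with those of the other libraries at r of 0.938 to 0.951, against 0.98 to 0.994 among the other 7. The summed FPKM of 10 fibroblast markers was 45.3 in PBS replicate 4, 130 to 185 in the other PBS libraries and 165 to 192 in the gluconate libraries. Nearly all of that sum was COL1A1, at 41.4 FPKM in PBS replicate 4 and 121 to 182 in the others, while PDGFRA, COL1A2, POSTN and DCN were at or near 0 in every library. FOXL2, the leading gene of the granulosa and theca list, was at 21.5 FPKM in that library and at 1.56 to 3.6 in the other 7, whereas AMH of the same list was lowest there at 1.4 FPKM and 6 of its 8 genes were at 0 there. The 9 ovarian carcinoma markers summed to 1670 to 2410 FPKM in all 8 libraries, led by KRT8 at 700 to 1050 and KRT18 at 513 to 987. Within that list PBS replicate 4 was highest in WT1, at 6.58 FPKM against 1.07 to 1.82, and lowest in KRT7, at 124 against 185 to 393, in EPCAM, at 10.3 against 15.7 to 22.3, and in PAX8, at 32.4 against 38.0 to 50.7. CD68 led the myeloid list at 19.7 to 28.0 FPKM and TNNT1 the skeletal muscle list at 96.1 to 110 FPKM. TIE1 led the endothelial list at 0.202 to 2.86 FPKM, CIDEC the adipocyte list at 0 to 0.231 FPKM and ITGA2B the platelet and red blood cell list at 0.145 to 0.49 FPKM. Most other markers of these lists were below 1 FPKM, and 7 listed markers were not analysed here. Between groups, KRT7 was higher in gluconate (log2 fold change 0.73, limma unadjusted p = 0.0201) and TIE1 lower (-1.28, unadjusted p = 0.047) with all libraries, and without PBS replicate 4 they were at 0.48 (unadjusted p = 0.0269) and -1.22 (unadjusted p = 0.0657), where AMH was lower at -0.47 (unadjusted p = 0.0368). The 5 fibroblast markers tested, among them COL1A1 at 0.69 (unadjusted p = 0.0989), had log2 fold changes of 0.33 to 0.70 with all libraries. Without PBS replicate 4 they were at 0.07 for PDGFRB, 0.20 for LUM, 0.24 for COL1A1, -0.04 for COL3A1 and 0.42 for FAP. None was under an unadjusted p of 0.05 in limma in either fit. Fewer cells of a type and less RNA per cell cannot be told apart in such bulk tumors, and the part of host cells or of this library's quality in any result below was not tested. The fold change of each member is therefore given with and without PBS replicate 4.

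TGFB1 was by far the highest of the 10 genes and lay at percentile 96 of the table, with a median of 65.9 FPKM over the 8 libraries. LTBP4 followed at a median of 30.2 FPKM, and the ranges of these leading genes did not overlap each other or that of any other member. LTBP2, TGFBR2 and LTBP3 came next at medians of 10.5, 9.51 and 8.36 FPKM, and their ranges overlapped. LTBP3 was above TGFBR3 in 7 of 8 libraries, with ranges that overlapped as well. TGFBR3 at 4.96 FPKM was above TGFBR1 at 3.11 FPKM in all 8 libraries, with ranges that did not overlap, and TGFBR1 was above LTBP1 in the same way. LTBP1, TGFB2 and TGFB3 closed the order at 1.24, 1.03 and 0.925 FPKM, with ranges that overlapped one another. These levels are scaled by a gene length whose annotation is not given, so the order between genes depends on that length.

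**Figure D1:**
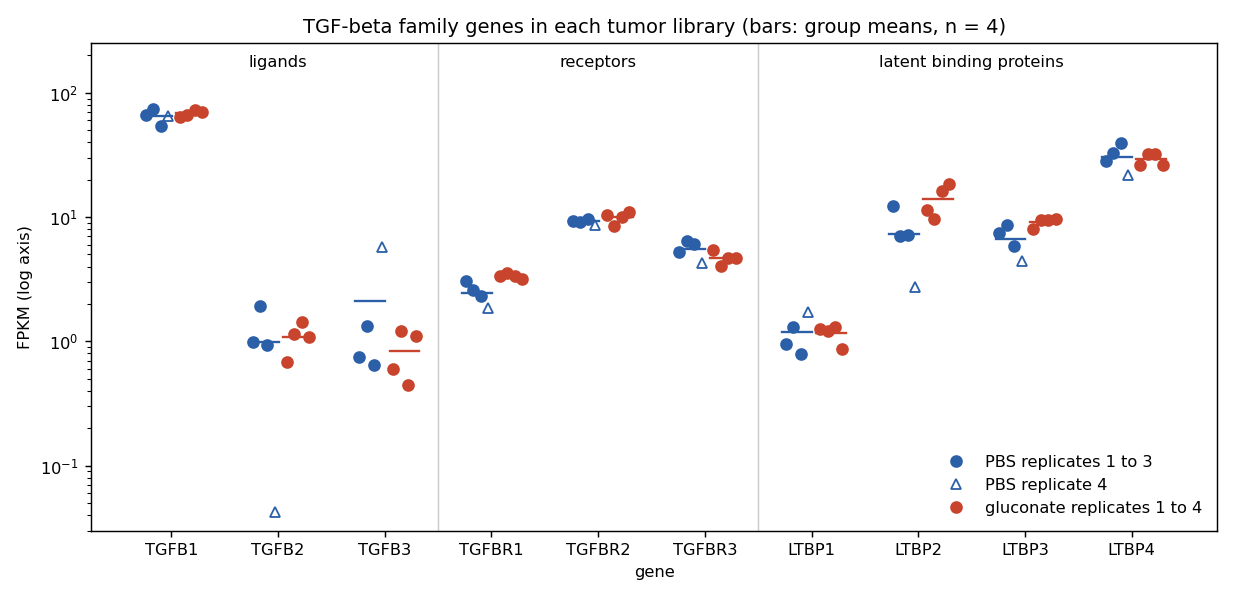
FPKM of the 10 genes on a log axis, one point per tumor library, with the 4 PBS libraries in blue (PBS replicate 4 as an open triangle), the 4 gluconate libraries in red and a bar at each group mean. TGFBR1 was at 3.19 to 3.53 FPKM in gluconate and at 1.84 to 3.04 in PBS without overlap, and PBS replicate 4 was the lowest point of TGFB2 at 0.0425 and the highest of TGFB3 at 5.7.

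Of the 10 genes, 3 were higher in gluconate tumors at an unadjusted p under 0.05 (limma): the type I receptor TGFBR1 and the binding proteins LTBP2 and LTBP3. None was lower. Among all 12486 genes tested, 391 (3.13%) were higher and 186 (1.49%) lower by the same rule. After Benjamini-Hochberg adjustment across the whole table, limma left 0 genes (0.0%) under 0.05, the smallest adjusted p being 0.74, and limma's voom on recovered fragments also left 0. No difference reported here therefore passed a test that accounts for the number of genes. Without PBS replicate 4, the same 3 members were higher and TGFBR3 was lower, against 353 (2.83%) of all genes higher and 419 (3.36%) lower. Leaving out gluconate replicate 3, or gluconate replicate 4, left 1 member higher, beside 167 and 159 of all 12486 genes tested. The median log2 fold change of gluconate over PBS was 0.09 over the members and 0.07 over all genes tested, and it was 0.08 and -0.003 without PBS replicate 4. The libraries are labelled as separate samples, and nothing in the labels says how tumors and mice correspond, so p-values measure the spread between these libraries.

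Among the ligands, the level of TGFB1 was close in both groups and the values of TGFB2 and TGFB3 turned on PBS replicate 4. TGFB1, the isoform that most epithelial and immune cells make, was at 65.9, 74.5, 54.1 and 65.1 FPKM in PBS replicates 1 to 4 and at 64.2, 65.8, 73.1 and 70.1 FPKM in gluconate replicates 1 to 4. All gluconate values lay inside the PBS range. PBS averaged 64.9 ± 8.36 FPKM (SD, n = 4) and gluconate 68.3 ± 4.05 (SD, n = 4), with a log2 fold change of 0.08 (SE 0.10, 95% interval -0.14 to 0.30, unadjusted p = 0.435 and adjusted p = 0.794 in limma). The log2 fold change was 0.09 when PBS replicate 4 was left out. The gene occupies chr19:41330323-41353922 on the minus strand.

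TGFB2, an isoform known from development and from the mesenchymal state, was at 0.987, 1.94, 0.943 and 0.0425 FPKM in PBS and at 0.687, 1.15, 1.42 and 1.08 FPKM in gluconate. The lowest of these values rests on 1 fragment in PBS replicate 4 (95% Poisson interval 0.00108 to 0.237 FPKM, counting error only), whereas the other libraries had 165 to 538 fragments. With all libraries the difference was 0.60 on the log2 scale (SE 0.70, limma unadjusted p = 0.411) and it was -0.20 (unadjusted p = 0.493) without PBS replicate 4, so its direction rests on that library. Its antisense gene TGFB2-AS1, which overlaps the start of TGFB2, was at 0 to 0.411 FPKM with at most 9 fragments in a library. TGFB2 lies at chr1:218345336-218444619 on the plus strand.

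TGFB3, an isoform known from palate closure and wound repair, was at 0.747, 1.34, 0.648 and 5.7 FPKM in PBS and at 0.597, 1.21, 0.449 and 1.1 FPKM in gluconate. PBS replicate 4 was thus 4.25 times above the highest of the other 7 libraries, on 88 fragments (95% Poisson interval 4.57 to 7.02 FPKM), while its TGFB2 level was the lowest. The other 7 libraries overlapped between groups, with means of 0.912 ± 0.375 FPKM (SD, n = 3) in PBS and 0.839 ± 0.373 (SD, n = 4) in gluconate. The log2 fold change was -0.78 (SE 0.61, limma unadjusted p = 0.228) with PBS replicate 4 and -0.14 (unadjusted p = 0.692) without it. TGFB3 lies at chr14:75958097-75983011 on the minus strand, on the same chromosome as LTBP2.

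As a share of the summed FPKM of the ligands, TGFB1 took 95.8 to 98.0% in 7 libraries and 91.9% in PBS replicate 4. There TGFB3 took 8.05%, against 0.599 to 1.77% elsewhere, and TGFB2 took 0.06%, against 1.05 to 2.5%. The summed ligands were 68.0 ± 9.22 FPKM (SD, n = 4) in PBS and 70.2 ± 4.22 (SD, n = 4) in gluconate, and 67.0 FPKM in PBS without replicate 4.

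TGFBR1 was the member whose groups were fully apart. This type I receptor, the kinase that phosphorylates SMAD2 and SMAD3, was at 3.04, 2.57, 2.33 and 1.84 FPKM in PBS and at 3.34, 3.53, 3.38 and 3.19 FPKM in gluconate. All 4 gluconate libraries were above all 4 PBS libraries, with PBS replicate 4 the lowest and PBS replicate 1 the nearest. Groups apart in this direction were found in 2.08% of all genes tested. The means were 2.44 ± 0.499 FPKM (SD, n = 4) and 3.36 ± 0.139 (SD, n = 4), a log2 fold change of 0.46 (SE 0.15, 95% interval 0.12 to 0.81, limma unadjusted p = 0.0135 and adjusted p = 0.74). The two-sided exact permutation test over samples gave p = 0.0286, the smallest that groups of 4 allow. Groups that are apart stay apart when a library is left out, so the fit without PBS replicate 4 does not test the separation. In that fit the log2 fold change was 0.34 (limma unadjusted p = 0.0102 and adjusted p = 0.802). The exact permutation p was then 0.0571, the smallest possible there and fixed by the separation. The gene lies at chr9:99103647-99154192 on the plus strand.

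TGFBR2, the ligand-binding type II receptor, was at 9.37, 9.15, 9.66 and 8.68 FPKM in PBS and at 10.3, 8.49, 10.0 and 11.0 FPKM in gluconate. The group ranges overlapped, since gluconate replicate 2 was the lowest library of all. The log2 fold change was 0.10 (SE 0.10, 95% interval -0.12 to 0.32, limma unadjusted p = 0.315), and 0.08 without PBS replicate 4. LOC105377015, which overlaps the start of TGFBR2 at chr3:30606356-30694142, was at no more than 0.086 FPKM.

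TGFBR3, the co-receptor that also sheds as a soluble ligand trap, was at 5.22, 6.46, 6.04 and 4.31 FPKM in PBS and at 5.42, 4.04, 4.71 and 4.67 FPKM in gluconate. PBS replicates 2 and 3 were above every gluconate library, and PBS replicate 4 was below all but one of them. The log2 fold change was -0.21 (SE 0.15, 95% interval -0.54 to 0.12, limma unadjusted p = 0.181 and adjusted p = 0.74). It was -0.32 without PBS replicate 4 (SE 0.11, limma unadjusted p = 0.0183 and adjusted p = 0.802), with means of 5.91 ± 0.63 FPKM (SD, n = 3) in PBS and 4.71 ± 0.561 (SD, n = 4) in gluconate and an exact permutation p of 0.114. The limma voom fit on fragments, which gives less weight to shallow values, put the log2 fold change at -0.30 (unadjusted p = 0.032) with all 8 libraries. It was -0.13 (limma unadjusted p = 0.412) without PBS replicate 2, -0.16 (unadjusted p = 0.339) without PBS replicate 3 and -0.14 (unadjusted p = 0.389) without gluconate replicate 2. TGFBR3 lies at chr1:91680343-91906002 on the minus strand.

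The summed receptors were 17.2 ± 1.58 FPKM (SD, n = 4) in PBS and 18.0 ± 1.37 (SD, n = 4) in gluconate, and 17.9 FPKM in PBS without replicate 4. TGFBR1 took 14.2 ± 2.16% of the sum in PBS and 18.8 ± 2.26% in gluconate (SD, n = 4 each), with overlap between PBS replicate 1 at 17.2% and gluconate replicate 4 at 16.9%. TGFBR3 took 31.9 ± 3.11% in PBS and 26.1 ± 1.62% in gluconate, and every gluconate share, 24.8 to 28.4%, was below every PBS share, 29.1 to 35.5%. The nearest shares were 29.1% in PBS replicate 4 and 28.4% in gluconate replicate 1. The TGFBR3 level of PBS replicate 4 rests on 112 fragments (95% Poisson interval 3.55 to 5.18 FPKM). Whether the shares are apart beyond counting error in that library was not tested. TGFBR2 took 50.3 to 58.6% in all libraries. Shares were not tested, and a higher share of one receptor lowers the others by construction.

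**Figure D2:**
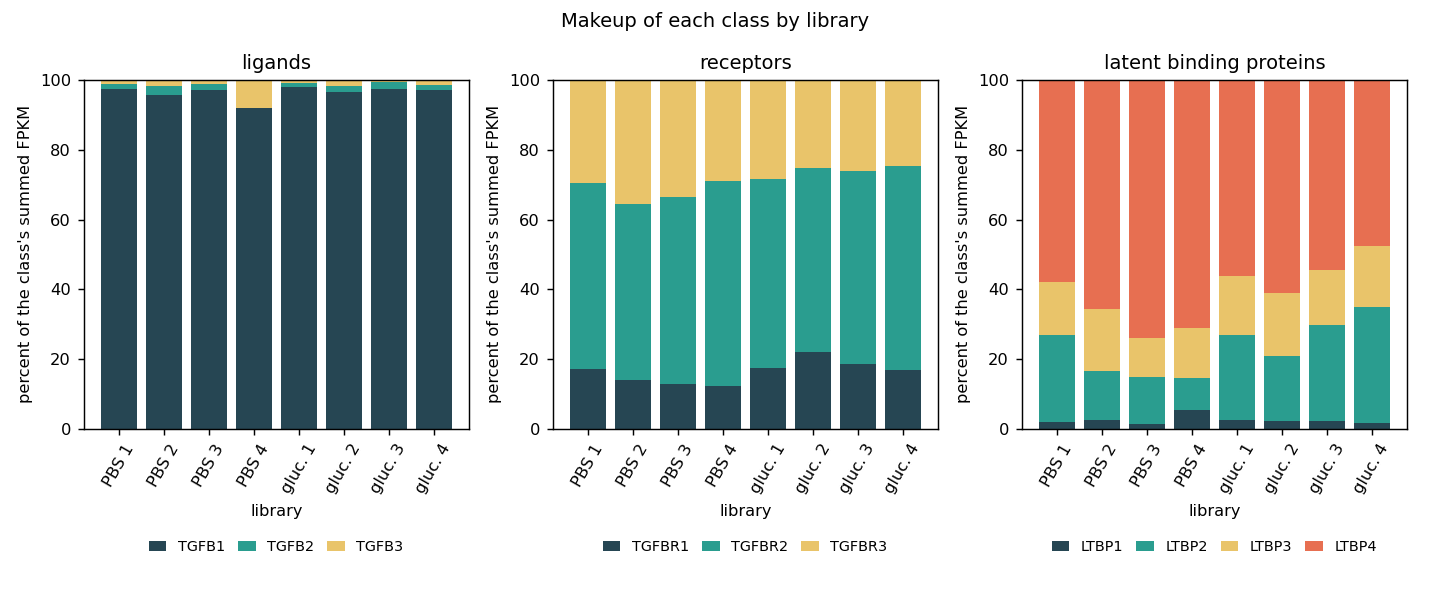
Stacked bars of the percent of summed FPKM that each gene took within the ligands, the receptors and the latent binding proteins, for each of the 8 libraries. TGFB1 filled 91.9 to 98.0% of the ligand bars, TGFBR3 had 29.1 to 35.5% of the receptor bars in PBS and 24.8 to 28.4% in gluconate, and LTBP2 had 8.91 to 24.9% of the binding protein bars in PBS and 18.6 to 33.3% in gluconate.

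Of the binding proteins, LTBP2 had the highest fold change of all 10 genes. LTBP2 binds fibrillin and, unlike the other LTBPs, is not known to hold latent TGF-beta. It was at 12.3, 7.01, 7.18 and 2.75 FPKM in PBS and at 11.3, 9.73, 16.3 and 18.4 FPKM in gluconate. Gluconate replicates 3 and 4 were the highest libraries and PBS replicate 4 the lowest, on 96 fragments, but PBS replicate 1 was above gluconate replicates 1 and 2. PBS averaged 7.3 ± 3.89 FPKM (SD, n = 4) and gluconate 13.9 ± 4.09 (SD, n = 4), a log2 fold change of 1.06 (2.08-fold, SE 0.40, 95% interval 0.16 to 1.95, limma unadjusted p = 0.0251 and adjusted p = 0.74), with an exact permutation p of 0.0857. Leaving out PBS replicate 4 gave 0.66 (1.58-fold, limma unadjusted p = 0.0256), and leaving out gluconate replicate 3 or gluconate replicate 4 gave 0.96 (unadjusted p = 0.0611) or 0.91 (unadjusted p = 0.0703). The gene lies at chr14:74498183-74612237 on the minus strand.

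LTBP3, which is needed for TGF-beta storage in bone and tooth matrix, was at 7.51, 8.69, 5.88 and 4.45 FPKM in PBS and at 8.02, 9.41, 9.41 and 9.74 FPKM in gluconate. One PBS library, replicate 2, was above the lowest gluconate library, and the other PBS libraries were below all of gluconate. The means were 6.63 ± 1.86 FPKM (SD, n = 4) and 9.15 ± 0.764 (SD, n = 4), a log2 fold change of 0.50 (1.41-fold, SE 0.19, 95% interval 0.07 to 0.92, limma unadjusted p = 0.0263 and adjusted p = 0.74), with an exact permutation p of 0.0571. It was 0.32 without PBS replicate 4 (limma unadjusted p = 0.0309). Leaving out PBS replicate 3 or any of gluconate replicates 2, 3 and 4 gave a limma unadjusted p of 0.0563 to 0.0628. The gene is at chr11:65538559-65558359 on the minus strand.

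LTBP4, which assembles elastic fibers and carries latent TGF-beta 1, was at 28.5, 32.8, 39.5 and 22.0 FPKM in PBS and at 26.4, 31.9, 32.4 and 26.3 FPKM in gluconate. All gluconate values lay inside the PBS range. Its log2 fold change was -0.05 (SE 0.17, limma unadjusted p = 0.789), and it was -0.19 (unadjusted p = 0.139) without PBS replicate 4 and 0.09 without PBS replicate 3. LTBP4 lies at chr19:40593166-40629820 on the plus strand, on the chromosome of TGFB1.

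LTBP1, the best known carrier of latent TGF-beta 1, was at 0.958, 1.31, 0.794 and 1.72 FPKM in PBS and at 1.26, 1.22, 1.3 and 0.866 FPKM in gluconate. PBS replicate 4 was here the highest library, on 47 fragments. Its 95% Poisson interval, 1.26 to 2.29 FPKM, took in the values of PBS replicate 2 and gluconate replicate 3. Its log2 fold change was 0.00 (SE 0.25, limma unadjusted p = 0.996), and 0.18 (unadjusted p = 0.381) without PBS replicate 4. LTBP1 lies at chr2:32946953-33399509 on the plus strand.

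The summed binding proteins were 45.8 ± 10.1 FPKM (SD, n = 4) in PBS and 53.5 ± 5.22 (SD, n = 4) in gluconate, with 30.9 FPKM in PBS replicate 4 and a PBS mean of 50.8 FPKM without it. LTBP4 took 67.2 ± 7.1% of the sum in PBS and 54.8 ± 5.6% in gluconate (SD, n = 4 each), and LTBP2 took 15.3 ± 6.79% and 25.9 ± 6.16%. Both shares overlapped between groups, because PBS replicate 1, at 57.9% LTBP4 and 24.9% LTBP2, lay among the gluconate libraries.

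**Figure D3:**
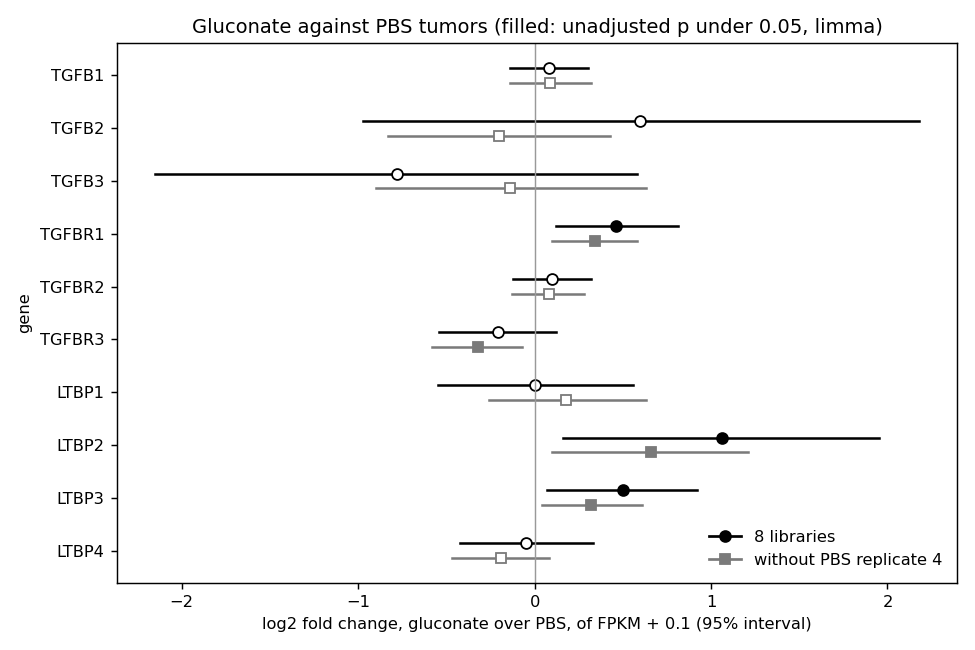
Log2 fold change of gluconate over PBS on the FPKM + 0.1 scale for each gene, with its 95% interval from limma, for all 8 libraries (black circles) and without PBS replicate 4 (grey squares), filled where the unadjusted p was under 0.05. LTBP2 went from 1.06 to 0.66, TGFBR1 from 0.46 to 0.34 and LTBP3 from 0.50 to 0.32 when that library was left out, and TGFB2 went from 0.60 to -0.20.

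The genes that free, store, modify and answer TGF-beta were taken from 4 lists, drawn up from general knowledge of the pathway with earlier results of these data known. Their counts and medians may in part reflect that choice and are descriptions. On activation and storage, 12 of 19 listed genes were tested, 5 were higher at an unadjusted p under 0.05 (limma) and 0 lower, with a median log2 fold change of 0.22, where 3.13% of all genes tested were higher and 1.49% lower. The 5 were the integrin chains ITGAV, ITGB1 and ITGB5, of which ITGAV pairs with ITGB5 in an integrin that frees latent ligand, the activator thrombospondin 1 (THBS1) and fibrillin 1 (FBN1), the fiber on which LTBPs are stored. ITGB1, the highest of the list by its mean over the 8 libraries, was at 145 ± 20.0 FPKM (SD, n = 4) in PBS and 172 ± 6.63 (SD, n = 4) in gluconate, a log2 fold change of 0.25, while TGM2 was the higher of the pair in PBS at 158 FPKM. ITGAV was at 32.9 ± 9.48 and 43.6 ± 3.06 FPKM (0.45 on the log2 scale), and ITGB5 at 18.8 ± 3.71 and 25.0 ± 2.88 FPKM (0.42). THBS1 was at 69.0 ± 17.6 and 102 ± 26.9 FPKM, a log2 fold change of 0.58 (SE 0.22, limma unadjusted p = 0.027). FBN1 was at 9.22 ± 3.68 and 14.4 ± 2.84 FPKM (0.72). All 5 overlapped between groups. The same 5 had an unadjusted p under 0.05 without PBS replicate 4, where the crosslinking enzyme TGM2 was lower and the median was 0.07, with log2 fold changes of 0.22 for ITGB1, 0.23 for ITGAV, 0.30 for ITGB5, 0.38 for THBS1 and 0.41 for FBN1. Of all genes tested, 2.83% were higher and 3.36% lower in that fit. The count of 5 fell to 2 without PBS replicate 2, PBS replicate 3 or gluconate replicate 3, to 3 without gluconate replicate 2 and to 1 without gluconate replicate 4. Of all 12486 genes tested, 666 were higher without PBS replicate 2 and 307 without PBS replicate 3. The all-gene counts were 262, 167 and 159 without gluconate replicates 2, 3 and 4.

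Of 11 accessory receptors and extracellular antagonists, 9 were tested and 0 had an unadjusted p under 0.05 in limma or in voom with all libraries, with a median log2 fold change of 0.10, where 3.13% of all genes tested were higher and 1.49% lower in limma. CD109, a co-receptor that dampens TGF-beta signaling, was at 28.1, 23.9, 25.4 and 17.2 FPKM in PBS and at 29.2, 28.8, 28.1 and 28.4 FPKM in gluconate. Its groups did not overlap, as in 2.08% of all genes tested in this direction, although PBS replicate 1 and gluconate replicate 3 nearly coincided, and its log2 fold change was 0.30 (SE 0.14, limma unadjusted p = 0.0545). It was 0.15 without PBS replicate 4 (limma unadjusted p = 0.0489), which made it the 1 gene of the list past that line, where 2.83% of all genes tested were higher. The matrix proteoglycan BGN, the highest of the list, was at 62.7 ± 24.9 and 78.4 ± 11.0 FPKM (SD, n = 4 each), with a log2 fold change of 0.41 (limma unadjusted p = 0.163), and 0.12 (unadjusted p = 0.439) without PBS replicate 4.

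Of 20 SMAD proteins and their regulators, 18 were tested, 1 was higher and 1 lower at an unadjusted p under 0.05 (limma), beside 3.13% and 1.49% of all genes tested, with a median log2 fold change of 0.03. PMEPA1, a membrane protein that binds SMAD2 and SMAD3 and is itself induced by TGF-beta, was at 11.9, 6.9, 5.31 and 3.85 FPKM in PBS and at 11.1, 11.5, 13.6 and 16.7 FPKM in gluconate. PBS replicate 1 overlapped the gluconate libraries and the other PBS libraries were well below them, with a log2 fold change of 1.01 (SE 0.30, limma unadjusted p = 0.00761 and adjusted p = 0.74), and 0.77 (unadjusted p = 0.00996) without PBS replicate 4. TRIM33, a ubiquitin ligase that acts on SMAD4, was at 6.53, 7.03, 7.76 and 10.9 FPKM in PBS and at 5.93, 5.56, 5.52 and 5.09 FPKM in gluconate, without overlap (1.41% of all genes tested in this direction) and with a log2 fold change of -0.51 (SE 0.16, limma unadjusted p = 0.00879), and -0.36 (unadjusted p = 0.00259) without PBS replicate 4. SMAD2, which TGFBR1 phosphorylates, had groups that did not overlap (2.08% of all genes), at 0.98 to 1.27 FPKM in PBS and 1.28 to 1.33 FPKM in gluconate, with a log2 fold change of 0.15 and a limma unadjusted p of 0.325, and 0.07 without PBS replicate 4. The ubiquitin ligase STUB1 was the highest of the list, at 91.3 and 92.5 FPKM. Without PBS replicate 4 the counts were 1 higher and 2 lower, beside 2.83% and 3.36% of all genes tested, with SMURF2, a ubiquitin ligase for the receptors, as the added gene at a log2 fold change of -0.45.

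Of 30 TGF-beta target genes, 26 were tested, and 8 were higher at an unadjusted p under 0.05 (limma) and 0 lower, beside 3.13% and 1.49% of all genes tested. The median log2 fold change was 0.34, where that of all genes was 0.07. Without PBS replicate 4, 5 were higher and 3 lower, beside 2.83% and 3.36% of all genes tested, at a median of 0.14 against -0.003. The 5 were higher in both fits, namely CCN2, TGFBI, PMEPA1, TAGLN and THBS1. The actin-binding gene TAGLN was at 33.9, 17.7, 14.4 and 7.18 FPKM in PBS and at 25.6, 37.2, 41.9 and 53.5 FPKM in gluconate. One PBS library, replicate 1, was above the lowest gluconate library, and the log2 fold change was 1.27 (SE 0.41, limma unadjusted p = 0.0122 and adjusted p = 0.74), and 0.89 (unadjusted p = 0.0136) without PBS replicate 4. TGFBI, a secreted matrix adaptor, was at 152, 143, 103 and 45.2 FPKM in PBS and at 175, 136, 196 and 251 FPKM in gluconate, a log2 fold change of 0.88 (limma unadjusted p = 0.0337) that became 0.50 (unadjusted p = 0.0288) without PBS replicate 4. The matricellular protein CCN2 was at 87.3 ± 20.4 and 124 ± 23.5 FPKM (SD, n = 4 each), a log2 fold change of 0.51, and 0.34 without PBS replicate 4.

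The early response factors KLF10 and BHLHE40 and the cell cycle inhibitor CDKN2B were higher with all libraries, at log2 fold changes of 0.28, 0.37 and 0.34, and at 0.19, 0.32 and 0.25 (limma unadjusted p = 0.0595, 0.0596 and 0.0651) without PBS replicate 4. CDKN2B was fully apart between groups (2.08% of all genes), at 5.14 to 6.98 FPKM in PBS and 7.07 to 10.0 FPKM in gluconate. CDKN1A, which encodes the cell cycle inhibitor p21, was apart in the other direction (1.41% of all genes), at 8.93 to 18.6 FPKM in PBS and 6.82 to 8.77 FPKM in gluconate, with a log2 fold change of -0.43 (limma unadjusted p = 0.0887). It was lower without PBS replicate 4, as were TGM2 and the transcription factor SNAI2, with log2 fold changes of -0.52, -0.34 and -0.46. FN1, fibronectin, had the highest level of the list at 612 ± 205 FPKM (SD, n = 4) in PBS and 827 ± 170 (SD, n = 4) in gluconate, with a log2 fold change of 0.49 (limma unadjusted p = 0.0888), and 0.22 (unadjusted p = 0.179) without PBS replicate 4. The count of 8 fell to 3 without gluconate replicate 3 or gluconate replicate 4, where 167 and 159 of all 12486 genes tested were higher. PMEPA1, THBS1, TGM2, SMAD7, SKIL, MMP2 and ITGB6 stand on more than one list and, where tested, are counted on each. COL1A1, which makes up most of the fibroblast marker sum given above, is a target gene as well.

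**Figure D4:**
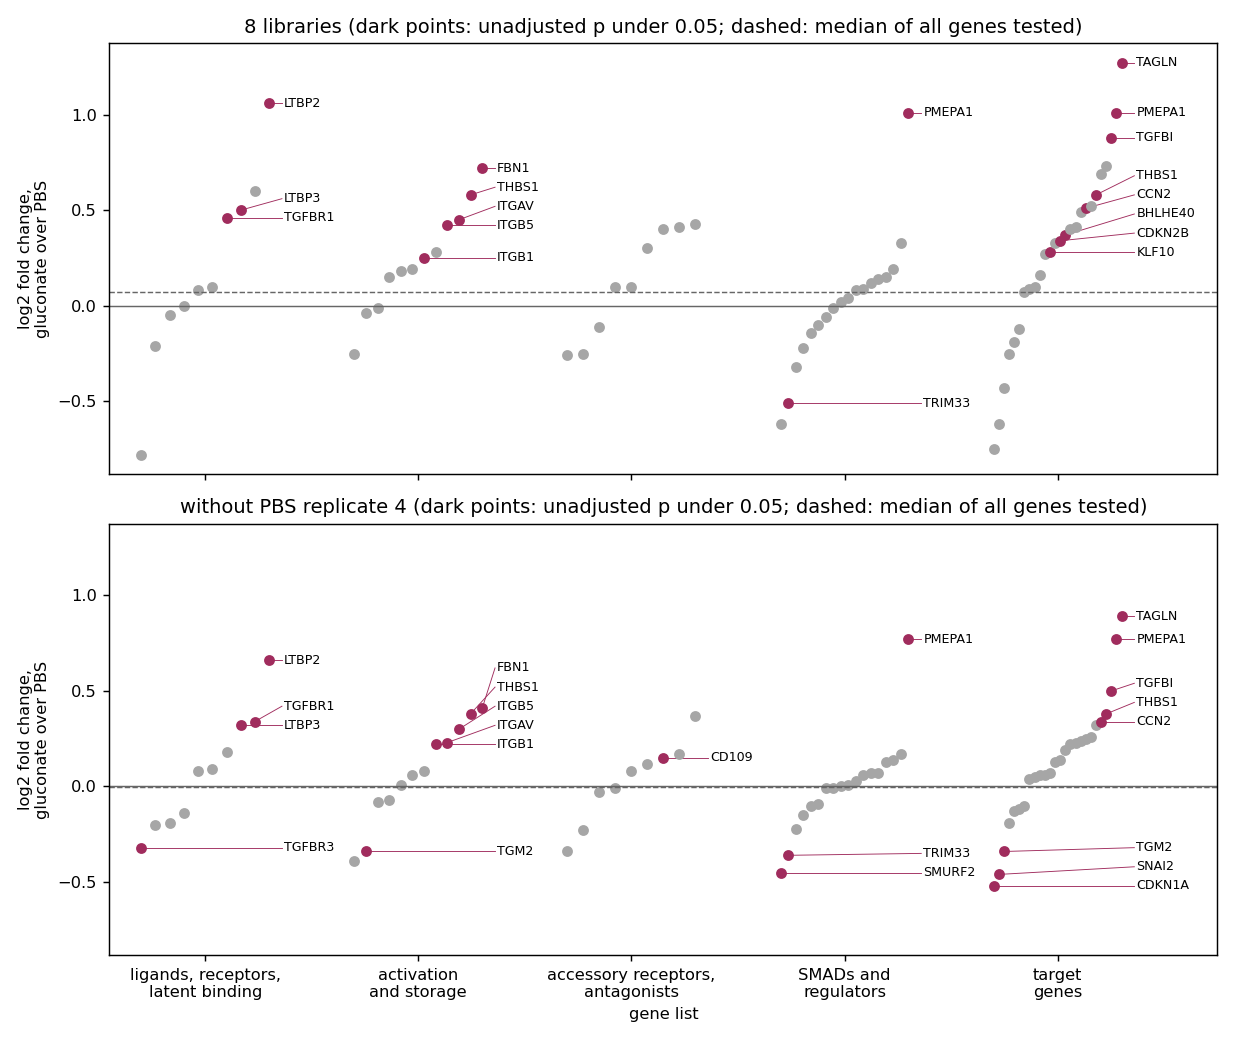
Log2 fold change of gluconate over PBS for the 10 members and for the tested genes of each of the 4 lists, sorted within a list, with all 8 libraries (upper panel) and without PBS replicate 4 (lower panel), and dark, named points where the limma unadjusted p was under 0.05. The median of the target genes was 0.34 in the upper panel and 0.14 in the lower, where 3 target genes were lower.

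When PBS replicate 4 was set aside, the pattern of LTBP2 was most like that of FBN1. Over the remaining 7 libraries their log2 values had a Pearson r of 0.999, the highest of the 12485 other genes tested, and r was 0.997 with PBS replicate 4. FBN1 was at 13.4, 9.54, 9.52 and 4.42 FPKM in PBS and at 12.5, 11.5, 16.0 and 17.5 FPKM in gluconate, so both genes put PBS replicate 1 between gluconate replicates 1 and 3. The level of FBN1 was 0.952 to 1.58 times that of LTBP2 on the FPKM + 0.1 scale, and the proteins they encode are both parts of microfibrils. The r of LTBP2 was 0.929 with PMEPA1, 0.911 with TAGLN, 0.89 with TGFBI, 0.866 with THBS1 and 0.702 with CCN2, which ranked 71, 111, 170, 269 and 1094 among the 12485 genes. LTBP2 and these 6 genes were set side by side after their values had been seen. The points share the difference between groups and the library, and with this many genes and 7 points a high r is common, so these values are a description.

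**Figure D5:**
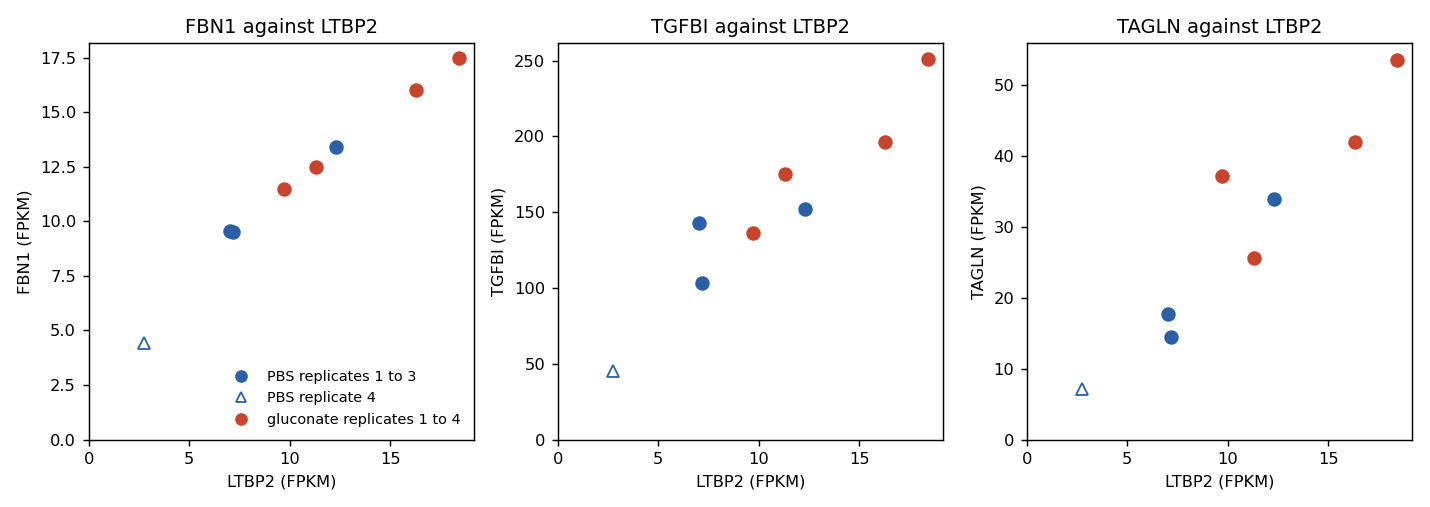
FPKM of FBN1, TGFBI and TAGLN against FPKM of LTBP2, one point per library, with PBS replicates 1 to 3 as blue circles, PBS replicate 4 as an open triangle and gluconate libraries in red. FBN1 followed LTBP2 through all 8 libraries, from 4.42 at an LTBP2 of 2.75 to 17.5 at 18.4, while TGFBI and TAGLN scattered more.

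For TGFB1 the genes with the highest r over the 7 libraries were OGFR, ELF4 and MBOAT7, at 0.98 each, with r of 0.7, 0.75 and 0.96 over all 8. For TGFBR2 they were CDK6-AS1, BAG1 and PIGQ, at 0.99, 0.98 and 0.97 over 7 and 0.92, 0.98 and 0.77 over 8. For LTBP4 they were SAMD4B, CREBL2 and SH2B3, at 0.99, 0.97 and 0.97 over 7 and 0.77, 0.85 and 0.94 over 8. Among the members themselves, TGFB1 and LTBP3 had an r of 0.86 over the 7 libraries and 0.57 over all 8, and TGFBR1 and TGFBR3 an r of -0.85 over 7 and -0.18 over 8, pairs that were also named after their values had been seen.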

How the data were processed

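RNA was polyA-selected from OVCAR8 tumors in NSG mice and sequenced as read pairs of 150 bases. The authors deposited FPKM values per gene symbol for 8 libraries, and the submitters' processing notes name GRCh38. Aligner, counting, strand setting and annotation are not given in the sources used here. Columns lettered C and T with a number were read as PBS and gluconate replicates of that number, because these are the groups with 4 samples and the study compares gluconate over PBS. Fragments were recovered from the FPKM steps, and 24195 of 24196 genes gave whole numbers in every library within 0.001.

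Groups were compared with limma 3.58.1 in R 4.3.3 (lmFit, eBayes with a trend, two-sided) on log2(FPKM + 0.1) over genes averaging 0.5 FPKM or more, with Benjamini-Hochberg adjustment over all of them and a threshold of 0.05. The pseudocount understates fold changes of low genes. Single genes were also compared by two-sided exact permutation over samples (Python 3.11.15, scipy 1.17.1). Poisson intervals cover counting error only. The script was tested on simulated data.

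Named genes were all members, overlapping genes with values (1 is not reported here), list genes with an unadjusted p under 0.05 or groups apart, the highest gene of each list, the 3 genes most like the highest member of each role, and the leading gene of each marker list. The members and lists were chosen with earlier results of these data known. Promoters and gene positions are from RefSeq (GRCh38.p14), where 22810 symbols matched, all members included. Alternatives were other pseudocounts, filters and scalings, voom, no moderation, a block for the replicate number and leave-one-out fits. Replicate numbers were not taken as pairs, and the labels do not say whether they pair the samples.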

Additional observations from a re-analysis of the deposited data

Results flagged for a closer look

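TGFB3 in PBS replicate 4 was far from the other libraries of its group, at 5.7 FPKM where the other PBS libraries were at 0.648 to 1.34 FPKM. The gap to the nearest library was 0.863 of the range of the group, above the 95% critical value that Dixon gives for 4 values. Among the 20 groups of 4 values examined (10 genes in PBS and in gluconate), 1 passed that value, and about 1 would by chance.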

How the results depend on the processing

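No member had an adjusted p under 0.05 in any alternative run. TGFBR1 had an unadjusted p of 0.00391 to 0.0366 and a log2 fold change of 0.34 to 0.57 over 18 alternatives. LTBP2 had 0.66 to 1.36 (p 0.00498 to 0.0742) and LTBP3 0.32 to 0.64 (p 0.00555 to 0.0628). The cause of the changes below was not tested.

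Without moderation, 1 member was higher, as were 2 activation and storage genes and 2 target genes, beside 282 higher and 207 lower of all genes. With the replicate block, 3 members, 2 activation and storage genes and 6 target genes were higher and 1 target gene was lower. Of all genes, 303 were higher and 167 lower with that block. The correlation of same-numbered libraries was -0.18, 0.08, 0.17 and -0.06 for numbers 1 to 4, and 2 of the 4 PBS libraries correlated best with their own number, so the numbers were not taken as pairs.

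With no filter, 747 genes of all tested were higher and 281 lower. Median ratio scaling, which moved the median of all genes from 0.07 to 0.003, gave 350 lower genes in all, 1 member lower, 1 activation and storage gene lower, 1 accessory gene higher and 2 target genes lower. Quantile normalization gave 353 lower genes, 1 member lower, 1 accessory gene higher and 2 SMAD genes lower. Voom gave 1 member and 1 target gene lower and 7 target genes higher, beside 336 higher and 257 lower of all genes. Voom without PBS replicate 4, chosen after seeing the data, gave 442 lower genes, 1 member and 1 activation and storage gene lower, 1 accessory gene higher, and 3 SMAD genes and 3 target genes lower. In each of these the lower member was TGFBR3, and 3 members were higher. Target genes higher were 8 with median ratio scaling, 9 with quantile normalization and 6 with voom without PBS replicate 4. Of all genes, 368, 430 and 313 were higher in those 3 fits.

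Leaving out each library in turn gave 159 to 929 higher and 108 to 419 lower genes of all tested, 1 to 3 higher and 0 to 1 lower members, and 1 to 2 members higher without overlap. It gave 1 to 5 higher and 0 to 1 lower activation and storage genes, 0 to 2 higher accessory genes, 1 to 2 higher and 1 to 2 lower SMAD genes, and 3 to 10 higher and 0 to 3 lower target genes.

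The log2 fold changes of TGFB1, TGFB2, LTBP1 and LTBP4 turned sign in some alternatives. TGFB1 was at -0.00 without PBS replicate 3, and TGFB2 at -0.20 (limma) and -0.23 (voom) without PBS replicate 4. LTBP1 was at -0.01 with a pseudocount of 1, -0.06 with median ratio scaling, -0.10 with quantile normalization, -0.08 and -0.16 without PBS replicates 1 and 3, and -0.04, -0.03 and -0.05 without gluconate replicates 1, 2 and 3. LTBP4 was at 0.09 without PBS replicate 3 and at 0.00 without gluconate replicate 1 or gluconate replicate 4. Over the fits that left out 1 library, TGFB1 ranged up to 0.15, TGFB2 up to 1.08 and LTBP1 up to 0.18, and LTBP4 down to -0.19. One fragment was worth 0.0425 FPKM of TGFB2 in PBS replicate 4 and at most 0.00427 elsewhere.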
